A study of Mus musculus with 12 samples.

Results

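Endothelial transcripts were examined in RNA from sorted alveolar type 2 (AT2) cells, the epithelial cells that make the surfactant of the lung. The 10 genes, of 21878 in the deposited table, were *Pecam1*, *Cd34*, *Cdh5*, *Cldn5*, *Kdr*, *Tek*, *Vwf*, *Egfl7*, *Ramp2* and *Plvap*. They were chosen by a higher level of *Pecam1* and *Cd34* in bleomycin-treated than in control *Atg5*f/f samples, and the other 8 were added as endothelial genes to see whether they moved with that pair. The levels of AT2-PBS and AT2-BLM samples were therefore used in the choice, and differences between those groups are given below as a description without a test.

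The study sequenced 12 samples in 4 groups of 3. AT2-PBS and AT2-BLM cells came from *Atg5*f/f mice, which carry loxP-flanked *Atg5* and no Cre, given PBS or bleomycin (BLM, which injures the lining of the alveoli) at 2 U/kg into the trachea. *Atg5*-/- AT2-PBS and *Atg5*-/- AT2-BLM cells came from Nkx2.1Cre;*Atg5*f/f mice, in which Cre under the Nkx2.1 promoter removes the autophagy gene *Atg5* across the lung epithelium and not in AT2 cells alone. Cells were taken at day 14, except that no day was named for *Atg5*-/- AT2-PBS, from mice whose strain is C57BL/6 in the labels and C57BL/6J in the methods, male and of 8 to 12 weeks by the methods. Every group was sorted for EpCAM and against CD31, CD34, CD45, CD24 and Sca-1, so that the gate itself was meant to remove cells with the proteins of *Pecam1* (CD31) and *Cd34*. The labels call the replicates biological, and whether a sample pooled mice was not stated.

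Endothelial cells line the vessels of the lung, and the alveolar wall holds a dense capillary bed directly beneath the epithelium. Their identity genes encode junction proteins (*Pecam1*, *Cdh5*, *Cldn5*), receptors for vascular growth factors (*Kdr* for VEGF, *Tek* for angiopoietins) and a receptor partner for the peptide adrenomedullin (*Ramp2*). Others encode a clotting protein (*Vwf*), a diaphragm protein of caveolae and fenestrae (*Plvap*), a secreted factor (*Egfl7*) and a surface sialomucin that blood progenitors and some fibroblasts also carry (*Cd34*).

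Levels are FPKM, which are fragments divided by transcript length and by the mapped fragments of the library. FPKM summed to between 390141 and 549169 per sample, and between 9090 and 10195 genes reached 1 FPKM. The low values put the samples' relative depth between 1 and 1.16, and the absolute depth is unknown. Of the AT2 genes, *Lyz2* was between 15122 and 48723 FPKM and *Sftpa1* between 4967 and 13567 FPKM. The sort antigen *Epcam* was between 102 and 179 FPKM. The AT2 gene *Sftpb* was at 1777, 11572 and 2589.5 FPKM in replicates 1 to 3 of AT2-PBS. Outside AT2-PBS, *Sftpb* was between 8984 and 16778.5 FPKM. It was thus lowest in AT2-PBS replicates 1 and 3, which were also lowest for *Pecam1* and *Ramp2*. *Lyz2* and *Sftpa1* were not low in these samples, and the cause was not tested. *Sftpc* was listed at 0 in 11 of 12 samples, which can be a failed estimate. *Atg5* was between 6.01 and 12.5 FPKM in *Atg5*f/f and between 6.72 and 10.1 FPKM in *Atg5*-/- samples, so whole-gene FPKM did not show the deletion. The Y-linked gene *Ddx3y* was between 4.22 and 5.98 FPKM in 5 samples and at most 0.173 FPKM in the other 7. This was so although the methods name male mice. The 5 were 2 samples of AT2-PBS, 1 of AT2-BLM, 0 of *Atg5*-/- AT2-PBS and 2 of *Atg5*-/- AT2-BLM. The groups compared below thus differed in *Ddx3y*, and the part of this in their differences was not tested.

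The members fell into 3 levels. *Egfl7* had the highest mean over the 12 samples at 13.8 FPKM. *Ramp2* (8.70), *Pecam1* (5.11), *Cldn5* (5.01), *Plvap* (4.25) and *Cd34* (3.07) formed a middle group in mean FPKM. *Vwf* (0.591), *Tek* (0.565), *Kdr* (0.331) and *Cdh5* (0.249) were lowest. These 4 did not reach 1 FPKM in at least 3 samples and were not tested, which left 6 members that passed this filter and were tested among 10675 genes.

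*Pecam1*, which lies on chromosome 11 at 106515531 to 106611942 of NCBIM37 (mm9), minus strand, encodes CD31, the adhesion protein by which endothelial cells are usually sorted. Replicates 1 to 3 of AT2-PBS had 0.0853, 5.82 and 0.342 FPKM, and those of AT2-BLM had 6.29, 6.49 and 6.12 FPKM. In *Atg5*-/- cells the PBS samples had 1.17, 1.33 and 13.1 FPKM and the BLM samples 6.64, 7.22 and 6.71 FPKM. The 6 BLM samples lay within 1.18-fold of one another, whereas the 6 PBS samples spanned 154-fold. Among the PBS samples, AT2-PBS replicate 2 came close to the BLM samples and *Atg5*-/- AT2-PBS replicate 3 exceeded all of them. Bulk samples do not show which cells the *Pecam1* transcripts came from. The number of such cells and their RNA per cell cannot be told apart either, and the cause of this split was not tested.

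*Ramp2*, on chromosome 11 at 101107342 to 101120860, plus strand, encodes the protein that turns the calcitonin receptor-like receptor into an adrenomedullin receptor. It was at 0.0924, 7.38 and 0.856 FPKM in AT2-PBS, against 9.30, 10.6 and 12.6 FPKM in AT2-BLM. In *Atg5*-/- samples it was at 3.33, 8.87 and 17.5 FPKM with PBS and at 10.7, 12.8 and 10.4 FPKM with BLM. The same pair of PBS samples was the highest of its group for *Ramp2* as for *Pecam1*, and the BLM samples spanned 1.37-fold against 189-fold among PBS samples. *Ramp2* overlaps *Vps25* on the same strand in the annotation, and *Vps25* was between 37.2 and 61.7 FPKM. The gene for the partner receptor, *Calcrl*, was at most 1.12 FPKM in any sample.

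*Cldn5*, on chromosome 16 at 18776940 to 18778353, plus strand, encodes a tight junction protein of vessels. Its level was 0.963, 6.30 and 0.954 FPKM in AT2-PBS and 4.08, 3.09 and 4.02 FPKM in AT2-BLM. It was 1.49, 7.78 and 14.7 FPKM in *Atg5*-/- AT2-PBS and 6.11, 4.17 and 6.47 FPKM in *Atg5*-/- AT2-BLM. AT2-PBS replicate 2 was above every AT2-BLM sample, so the ranges of these groups overlapped.

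*Plvap*, on chromosome 8 at 74021653 to 74035668, minus strand, was at 0.623, 5.63 and 0.113 FPKM in AT2-PBS, against 3.30, 2.75 and 4.06 FPKM in AT2-BLM. It was at 3.85, 5.22 and 6.47 FPKM in *Atg5*-/- AT2-PBS, against 6.47, 8.10 and 4.37 FPKM in *Atg5*-/- AT2-BLM. Here too AT2-PBS replicate 2 lay above all AT2-BLM samples, and the *Atg5*-/- samples were above AT2-PBS replicates 1 and 3 under both treatments.

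*Cd34*, on chromosome 1 at 196765015 to 196787486, plus strand, had an order of group means that no other member shared. The other members did not all share 1 order either. It was at 0.542, 0.943 and 0.0385 FPKM in AT2-PBS, against 2.34, 3.82 and 3.17 FPKM in AT2-BLM. It was highest in *Atg5*-/- AT2-PBS, at 5.47, 8.001 and 6.04 FPKM, and was at 2.14, 2.09 and 2.30 FPKM in *Atg5*-/- AT2-BLM. No group's range touched that of its neighbour in the order of means. *Cldn5*, *Cdh5*, *Kdr* and *Vwf* also had their highest mean in *Atg5*-/- AT2-PBS, with ranges that overlapped those of the next group. *Atg5*-/- AT2-PBS replicate 3, the highest sample for *Pecam1*, lay between the other 2 of its group for *Cd34*.

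*Egfl7*, on chromosome 2 at 26435534 to 26448640, plus strand, was present in every sample. It was at 12.7, 11.7 and 8.25 FPKM in AT2-PBS, against 13.3, 19.4 and 14.8 FPKM in AT2-BLM. It was at 9.83, 11.1 and 11.0 FPKM in *Atg5*-/- AT2-PBS, against 17.7, 18.0 and 18.1 FPKM in *Atg5*-/- AT2-BLM. All 6 BLM samples were above all 6 PBS samples, and neither group of PBS samples held one that stood apart. The gene overlaps *Agpat2* on the opposite strand, which was between 48.3 and 112 FPKM, and whether the counting used the strand was not stated.

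The remaining members are among the most specific endothelial genes. *Cdh5*, on chromosome 8 at 106625525 to 106668402, plus strand, encodes VE-cadherin, the adherens junction protein of the endothelium, and ranged from 0.0519 to 0.690 FPKM. *Kdr*, on chromosome 5 at 76328852 to 76374483, minus strand, ranged from 0.01995 to 0.828 FPKM. Neither reached 1 FPKM in any of the 12 samples.

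*Tek*, on chromosome 4 at 94405980 to 94541667, plus strand, encodes the angiopoietin receptor TIE2 and ranged from 0.222 to 1.42 FPKM, reaching 1 FPKM in 2 samples. *Vwf*, on chromosome 6 at 125496792 to 125636697, plus strand, was listed at 0 in AT2-PBS replicate 1 and reached 1 FPKM in 1 sample, at 1.80 FPKM. For *Tek* these were AT2-PBS replicate 2 and *Atg5*-/- AT2-PBS replicate 3, and for *Vwf* the latter. The ratio of *Cdh5* to *Pecam1* FPKM was between 0.0087 and 0.608 over the samples. Its upper end came from 0.0519 and 0.0853 FPKM in AT2-PBS replicate 1, so that end is not relied on. Where *Pecam1* was above 1 FPKM, this ratio was between 0.0087 and 0.350, with *Cdh5* under 1 FPKM throughout. With *Cd34* and *Pecam1* both above 1 FPKM, their ratio was 6.04 in *Atg5*-/- AT2-PBS replicate 2 and 0.290 in *Atg5*-/- AT2-BLM replicate 2. These 2 members were thus not present in 1 fixed proportion.

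**Figure D1:**
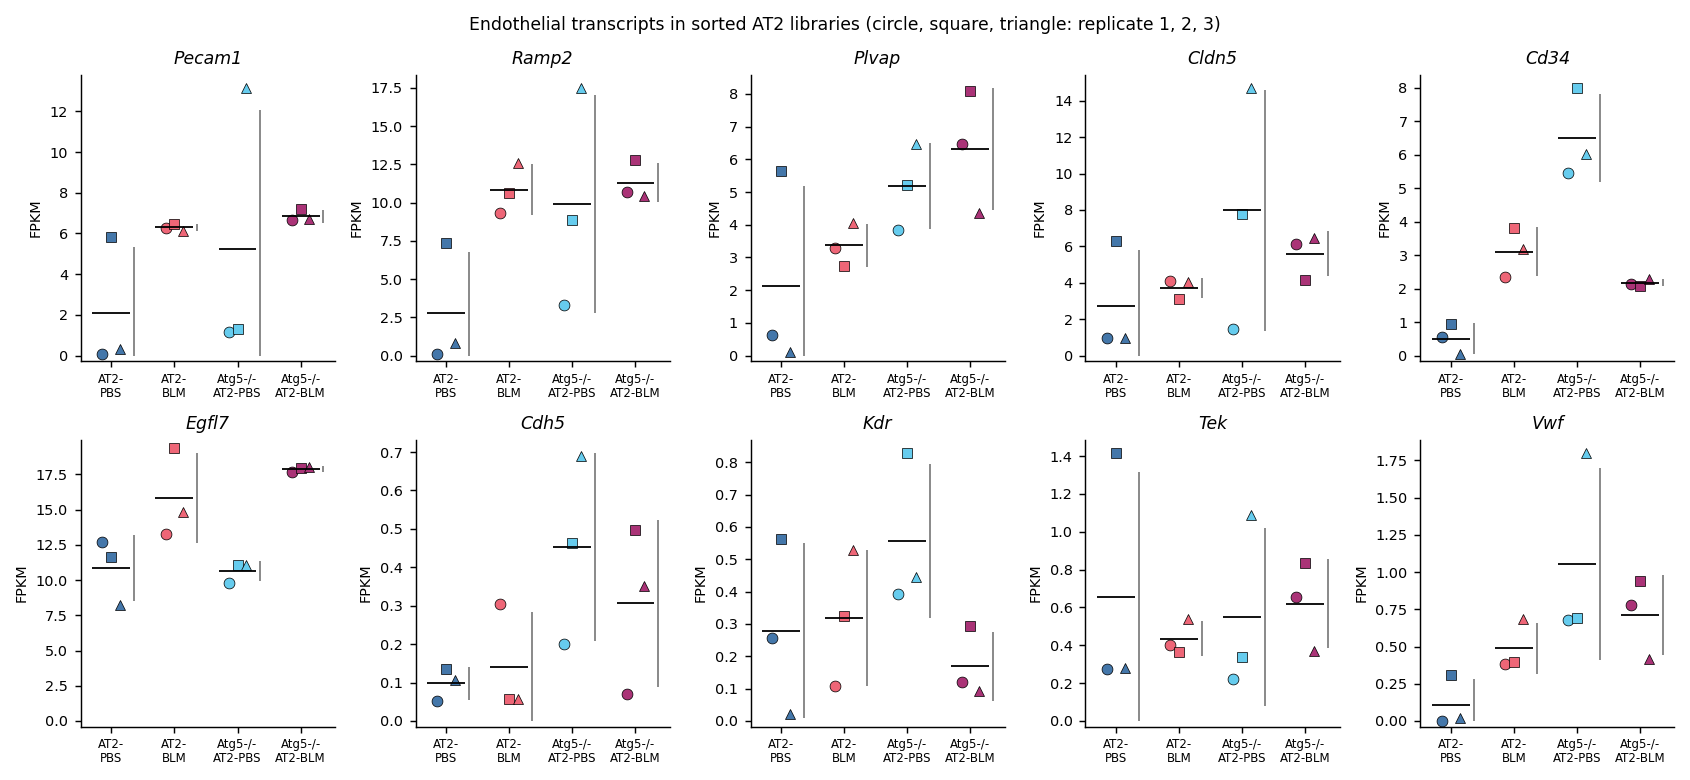
FPKM of the 10 members in each sample (linear axes, one panel per gene), by group, with points for the replicates, a black bar for the group mean and a grey line for 1 SD either side, cut at 0 (n = 3). Pecam1 and Ramp2 were tight in the BLM samples and spread in the PBS samples, Cd34 was highest in Atg5-/- AT2-PBS, and Cdh5 and Kdr stayed under 1 FPKM.

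Counted by sample, 1 of the 10 members reached 1 FPKM in AT2-PBS replicates 1 and 3, and 6 did so in each of 9 other samples. In *Atg5*-/- AT2-PBS replicate 3 the number was 8. In the 9 members without *Egfl7*, summed FPKM were 2.89, 28.5 and 2.73 in AT2-PBS and 26.5, 27.9 and 31.8 in AT2-BLM. They were 16.8, 33.5 and 61.9 in *Atg5*-/- AT2-PBS and 33.6, 36.9 and 31.5 in *Atg5*-/- AT2-BLM. The PBS samples thus held both the lowest and the highest sums.

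Transcripts of other cell types were read from marker lists to set beside these sums. Red cell transcripts were present throughout, and summed FPKM of the 6 erythroid genes found in the table were 81.4, 411 and 55.4 in AT2-PBS and between 276 and 414 in AT2-BLM. They were 567, 396 and 1544 in *Atg5*-/- AT2-PBS and between 337 and 393 in *Atg5*-/- AT2-BLM. *Hba-a1*, an alpha globin gene, was highest within its group in the same pair of PBS samples as *Pecam1*, at 303 and 1185 FPKM. The part of red cells in the levels of the members was not tested.

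The 12 leukocyte and macrophage genes summed to between 51.9 and 137 FPKM in AT2-PBS, between 166 and 642 FPKM in AT2-BLM, between 1016 and 1353 FPKM in *Atg5*-/- AT2-PBS and between 296 and 678 FPKM in *Atg5*-/- AT2-BLM. The 10 fibroblast genes summed to between 3.80 and 15.5, between 9.95 and 41.7, between 106 and 111 and between 7.003 and 18.7 FPKM in the same order of groups. *Atg5*-/- AT2-PBS, where *Cd34* was highest, was thus also highest for both lists. Their part in the level of *Cd34* was not tested. The platelet genes, led by *Pf4*, summed to between 9.66 and 13.4, between 9.66 and 20.4, between 22.9 and 35.4 and between 10.7 and 15.2 FPKM. Pericyte and smooth muscle genes were at most 9.70 FPKM in sum in any sample, and mesothelial genes were highest in AT2-BLM replicate 3 at 67.1 FPKM.

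The other antigens of the sort were read in the same way. *Ptprc* (CD45) was between 0.0119 and 0.621 FPKM in AT2-PBS, between 7.54 and 8.46 FPKM in *Atg5*-/- AT2-PBS and no higher than 2.64 FPKM in the BLM groups. *Ly6a*, which encodes Sca-1, was between 7.36 and 16.8 FPKM in AT2-PBS and between 63.1 and 984 FPKM in the other 9 samples. *Cd24a* was between 25.7 and 35.8 FPKM in *Atg5*-/- AT2-PBS and between 2.96 and 11.0 FPKM elsewhere. Transcripts of all 5 antigens used to exclude cells were therefore listed in every group.

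**Figure D2:**
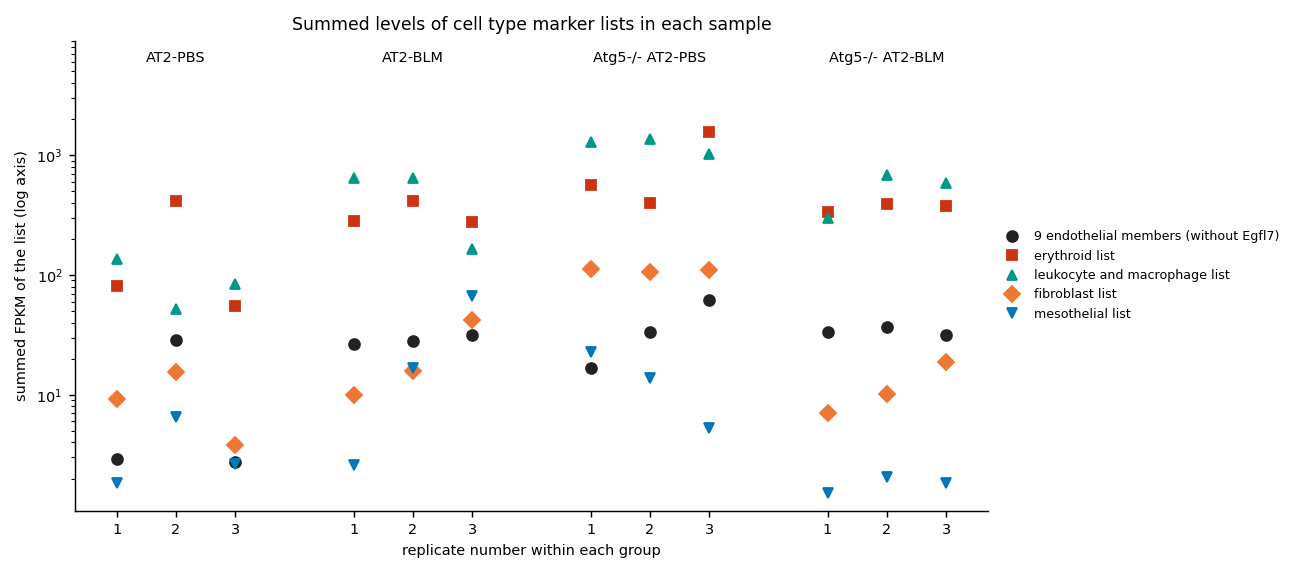
Summed FPKM (log axis) of the 9 members without Egfl7 and of the erythroid, leukocyte and macrophage, fibroblast and mesothelial lists, with 1 point per list in each of the 12 samples. The endothelial and erythroid sums were lowest in AT2-PBS replicates 1 and 3 and highest in Atg5-/- AT2-PBS replicate 3, whereas the fibroblast sums were highest in all 3 Atg5-/- AT2-PBS samples.

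To compare AT2-BLM with AT2-PBS, differences in mean log2(FPKM + 1) were fitted with limma. Genes counted as called had a fold change of 1.4 or more and an unadjusted p under 0.05. Of the 6 members tested, 4 were called higher (*Pecam1*, *Cd34*, *Ramp2* and *Egfl7*) and 0 lower, while 20.6% of all tested genes were called higher and 7.77% lower. The same 4 members had ranges that did not overlap between the groups, as had 40.2% of all genes tested. Nothing is read from these counts, since this contrast chose the members. The log2 differences were 1.76 ± 0.72 (SE) for *Pecam1*, 1.48 ± 0.24 for *Cd34*, 2.19 ± 0.64 for *Ramp2* and 0.51 ± 0.18 for *Egfl7*. *Plvap* differed by 0.92 ± 0.51 and *Cldn5* by 0.63 ± 0.61 on this scale and neither was called.

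On this scale the change of a gene near or under 1 FPKM comes out smaller than its ratio of FPKM. The median difference was 0.57 over all 10 members, 9 of which were above 0, and 1.20 over the 6 that passed the filter, beside 0.17 over all tested genes. Relative to the median of all genes, the difference was 1.59 for *Pecam1* and 0.33 for *Egfl7*. Scaling mattered for the background, since 2202 genes were called higher and 829 lower with FPKM as deposited, against 1319 and 1373 after quantile normalization and 1467 and 1303 after median-ratio scaling. *Pecam1* (1.58) and *Egfl7* (0.28) were not called after quantile normalization, and *Egfl7* (0.34) was not called after median-ratio scaling. All 6 members were called higher without AT2-PBS replicate 2, when *Pecam1* differed by 2.60, *Cldn5* by 1.27 and *Plvap* by 1.69. *Pecam1* was not called when any 1 of the other 5 samples was left out. Its difference was then 1.27 for AT2-PBS replicate 1 and 1.42 for AT2-PBS replicate 3 as the sample left out, and between 1.74 and 1.78 for each AT2-BLM sample. *Egfl7* was not called without AT2-PBS replicate 3 (0.34) or AT2-BLM replicate 2 (0.36).

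The same treatment in *Atg5*-/- AT2 cells was compared to see whether the endothelial genes moved together with BLM. Its samples were not those named in the choice of the members. The members were still chosen with earlier results of these data known, and the fit took its spread from all 12 samples. The comparison is therefore not a fully independent test. The genes did not all move one way. *Cd34* fell and *Egfl7* rose, and the other 4 tested members did not pass the test. *Cd34* fell by 1.23 on the log2 scale (SE 0.24, limma adjusted p = 0.00739 over all genes tested), with all 3 BLM samples below all 3 PBS samples. *Egfl7* was higher by 0.70 on the log2 scale (SE 0.18, limma adjusted p = 0.0292), with all 3 BLM samples above all 3 PBS samples. In the same comparison the summed FPKM of the leukocyte and macrophage genes and of the fibroblast genes, given above, were also lower in all 3 BLM samples than in all 3 PBS samples. Of the 12 and 10 genes on these lists, 9 and 5 passed the filter outside *Atg5*-/- AT2-PBS. Of these, 8 and 5 were called lower, beside 10.7% of all tested genes. The part of these cell types in the fall of *Cd34* was not tested.

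*Pecam1* was higher in mean by 0.92 on the log2 scale, with a 95% interval from -0.64 to 2.48 and a limma adjusted p of 0.527. *Ramp2* differed by 0.41 (interval -0.98 to 1.79, limma adjusted p = 0.794), *Plvap* by 0.23 (interval -0.87 to 1.33, limma adjusted p = 0.862) and *Cldn5* by -0.11 (interval -1.43 to 1.22, limma adjusted p = 0.954). The upper ends of these intervals lay above the differences described in *Atg5*f/f cells for *Pecam1*, *Plvap* and *Cldn5*, and below that for *Ramp2*. Of all genes tested, 7.66% were called higher and 10.7% lower, against 1 and 1 of the 6 members. For 24.9% of genes the groups did not overlap, against 2 of 6 members, and 8.67% had an adjusted p under 0.05, again against 2 of 6. Over all 10 members 5 were above 0 and 5 below, with a median of -0.0059. The median was 0.32 over the 6 members that passed the filter, beside 0.063 over all tested genes.

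*Atg5*-/- AT2-PBS replicate 3 decided the result for *Pecam1*. Without it the difference was 1.80 and *Pecam1* was called higher (limma unadjusted p = 0.0107, against 0.223 with all samples). *Ramp2* then differed by 0.91 and *Cldn5* by 0.48. AT2-PBS replicate 2 and *Atg5*-/- AT2-PBS replicate 3 were also left out together, after their levels had been seen to stand apart. The members called were then 4, with *Pecam1* at 1.80, *Ramp2* at 0.91 and *Egfl7* at 0.72 higher and *Cd34* at -1.26 lower. The values without *Atg5*-/- AT2-PBS replicate 3 and those without the pair are descriptive, because these samples were picked out by the members' own levels. *Cd34* and *Egfl7* kept their calls without any 1 sample and under both scalings.

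**Figure D3:**
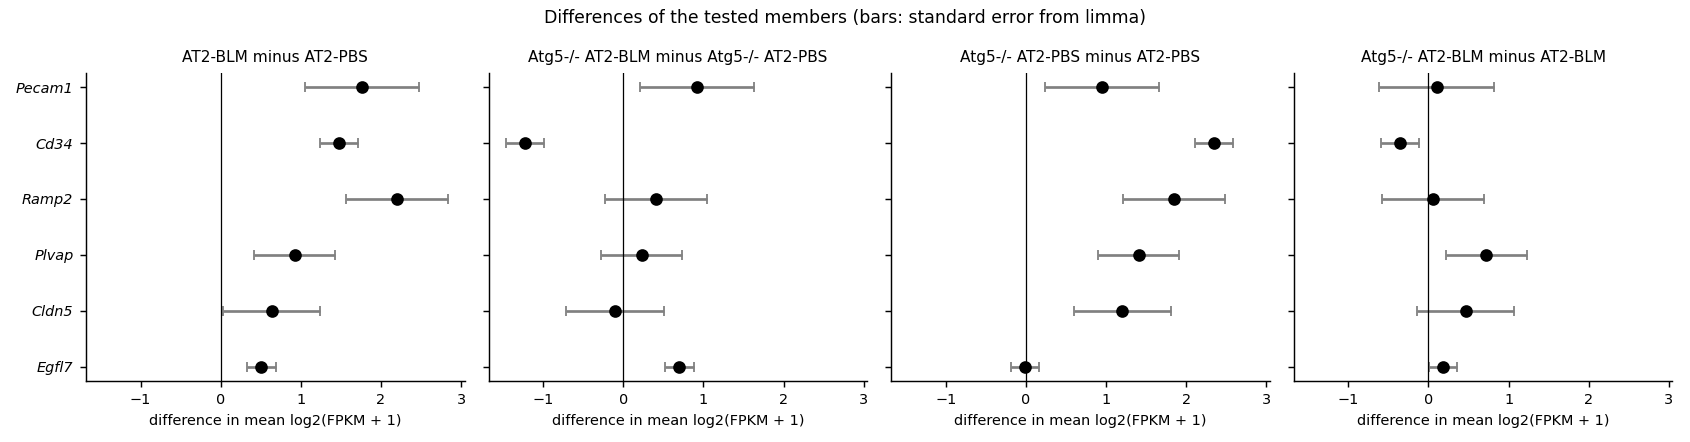
Difference in mean log2(FPKM + 1) of the 6 tested members in 4 comparisons, with bars for the standard error from limma (3 samples per group). With BLM, Cd34 differed by 1.48 in Atg5f/f and by -1.23 in Atg5-/- cells, whereas Egfl7 was higher by 0.51 and 0.70.

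*Atg5*-/- AT2-PBS and AT2-PBS were compared to see how the members differed with genotype in uninjured lungs. This comparison shares the AT2-PBS samples with the contrast that chose the members. *Cd34*, *Ramp2* and *Plvap* were called higher in *Atg5*-/- AT2-PBS, 3 of 6 members against 14.1% of all tested genes, and 0 were called lower against 5.16%. The difference of *Cd34* was 2.35 ± 0.24 (SE) on the log2 scale, given without a test. *Ramp2* was higher by 1.85 ± 0.64 (limma adjusted p = 0.0951) and *Plvap* by 1.41 ± 0.51 (limma adjusted p = 0.111), so that both missed the threshold after adjustment over all genes. *Cldn5* differed by 1.205 ± 0.61, *Pecam1* by 0.95 ± 0.72 and *Egfl7* by -0.0093 ± 0.18, and these were not called.

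*Cd34* was the 1 member of 6 whose ranges did not overlap, as for 28.9% of all genes. The calls of *Ramp2* and *Plvap* were lost without AT2-PBS replicate 1 (1.23 and 1.16) or *Atg5*-/- AT2-PBS replicate 3 (1.35 and 1.26), and that of *Plvap* also without AT2-PBS replicate 3 (0.89). Without AT2-PBS replicate 2, 5 members were called higher, *Pecam1* (1.78) and *Cldn5* (1.84) included. *Cldn5* was also called without *Atg5*-/- AT2-PBS replicate 1 (1.95). Over all genes, 1507 were called higher and 551 lower, against 1208 and 1493 after quantile normalization, which moved the median of all genes from 0.019 to -0.16. Of the leukocyte and macrophage genes that passed the filter outside *Atg5*-/- AT2-PBS all 9 were called higher in this comparison. All 5 of the fibroblast genes that did so were called higher too, beside 14.1% of all tested genes. The part of both lists in these differences was not tested.

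In injured cells, *Atg5*-/- AT2-BLM was set against AT2-BLM, which shares the AT2-BLM samples with the contrast that chose the members. By limma, 0 of 6 members were called, and 0 had an unadjusted p under 0.05, where 2.04% of all tested genes were called higher and 3.12% lower. The largest difference was that of *Plvap*, higher by 0.72 on the log2 scale (SE 0.51, interval -0.38 to 1.82, limma adjusted p = 0.740). *Plvap* was called when the other 2 groups were left out of the fit. *Cldn5* differed by 0.46 ± 0.61, *Egfl7* by 0.18 ± 0.18, *Pecam1* by 0.11 ± 0.72, *Ramp2* by 0.058 ± 0.64 and *Cd34* by -0.36 ± 0.24. For 4 of the 6 members the ranges did not overlap, with *Pecam1*, *Cldn5* and *Plvap* higher and *Cd34* lower in *Atg5*-/- AT2-BLM, against 13.4% of all tested genes. The spread in the fit came from all 12 samples, PBS samples included. Over all genes 218 were called higher and 333 lower, against 268 and 261 after median-ratio scaling.

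The effect of BLM was then compared between the genotypes as an interaction, which used every sample. *Cd34* was the 1 member called, lower by 2.70 ± 0.34 (SE) in its BLM effect in *Atg5*-/- cells, given without a test since its choice fixed part of this value. The values of the other members also rest on the samples used in the choice, so their p-values are not a fully independent test. Among these other members, *Ramp2* had the largest value at -1.79 ± 0.90 (limma adjusted p = 0.292). *Pecam1* came next at -0.84 ± 1.01, also given without a test, and its value turned to 0.041 without *Atg5*-/- AT2-PBS replicate 3. *Cldn5* was at -0.74 ± 0.86 (limma adjusted p = 0.683) and *Plvap* at -0.69 ± 0.71 (limma adjusted p = 0.636). *Egfl7* differed by 0.19 ± 0.25 in its BLM effect (interval -0.36 to 0.74, limma adjusted p = 0.722). Of all genes tested, 5.02% were called higher and 15.2% lower, and the split of 536 to 1620 became 1329 to 1176 after quantile normalization. Without AT2-PBS replicate 2, *Ramp2* (-2.64) and *Plvap* (-1.46) were also called, and without *Atg5*-/- AT2-PBS replicate 1 *Ramp2* (-2.34) and *Cldn5* (-1.49) were.

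The genes nearest in pattern to *Pecam1* were taken by Pearson r of log2(FPKM + 1) over the 12 samples, which share groups and libraries, as a description. They were *Mmrn2* (r = 0.97), *Icam2* (r = 0.97), *Klk10* (r = 0.95), *Sox18* (r = 0.95) and *Cytl1* (r = 0.94). *Mmrn2*, an endothelial matrix protein gene, *Icam2*, an adhesion molecule gene, and *Sox18*, a transcription factor gene of vessels, were also on a list of 20 further endothelial genes. *Icam2* was at 0.0446, 3.404 and 0.549 FPKM with PBS and 2.67, 2.59 and 2.21 FPKM with BLM in *Atg5*f/f cells, and at 0.734, 1.37 and 4.68 FPKM with PBS and 2.80, 3.54 and 3.01 FPKM with BLM in *Atg5*-/- cells. Its highest PBS samples were the same as for *Pecam1*.

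*Cytl1*, which encodes a small secreted protein, had the same shape at a far higher level. It stood at 0, 77.5 and 6.80 FPKM in AT2-PBS, against 80.8, 80.5 and 79.1 FPKM in AT2-BLM. It was at 3.14, 1.29 and 130 FPKM in *Atg5*-/- AT2-PBS, against 91.4, 87.4 and 81.2 FPKM in *Atg5*-/- AT2-BLM. As with *Pecam1*, the 6 BLM samples lay close together and the PBS samples fell into 2 that were high and 4 that were low.

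Among members, r to *Pecam1* was 0.91 for *Ramp2*, 0.77 for *Cldn5*, 0.76 for *Plvap*, 0.58 for *Egfl7* and 0.38 for *Cd34*. *Cd34* ranked 2420 among the tested genes by that measure. Genes near to *Cd34* by the same measure were *Gsta3* (r = 0.97), a glutathione transferase gene, *Mpeg1* (r = 0.96), a macrophage gene, *Tgm2* (r = 0.95) and *Cotl1* (r = 0.95). The value for *Ptprc* was 0.83 and that for the fibroblast gene *Dcn* 0.74. *Mpeg1* was between 0.217 and 0.750 FPKM in AT2-PBS and between 6.19 and 7.61 FPKM in *Atg5*-/- AT2-PBS, which were also the lowest and the highest group for *Cd34*.

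**Figure D4:**
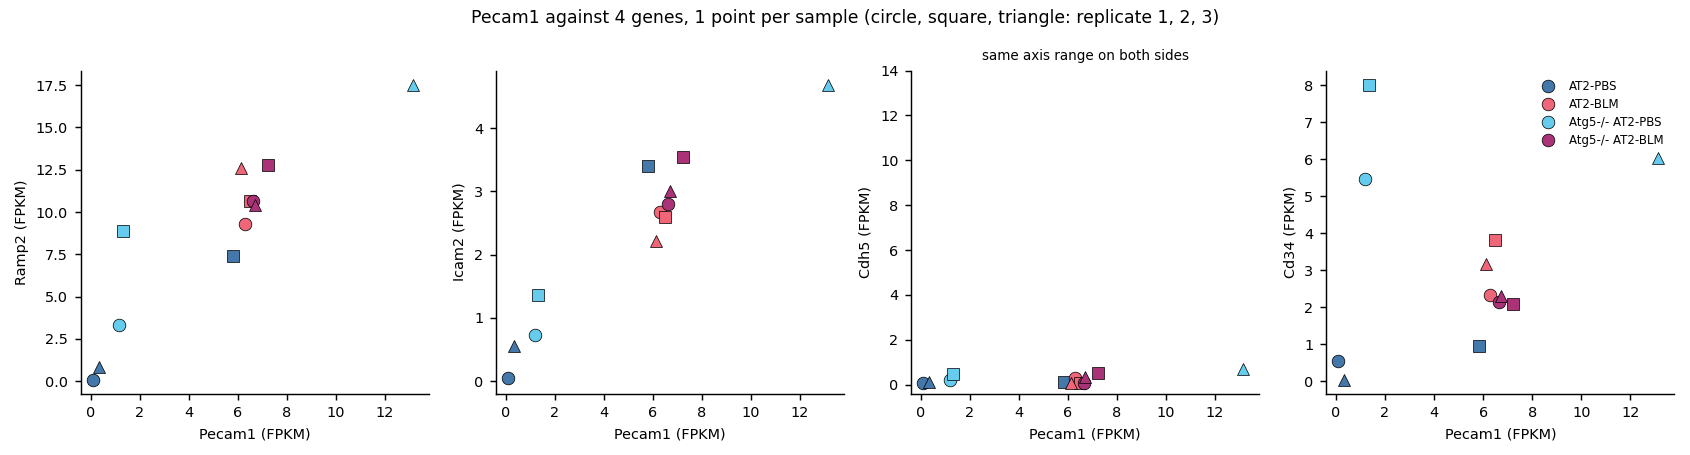
FPKM of Ramp2, Icam2, Cdh5 and Cd34 (vertical axes) against FPKM of Pecam1 (horizontal axis) with 1 point per sample, coloured by group. Ramp2 and Icam2 went along with Pecam1 over the 12 samples, Cdh5 stayed at most 0.690 FPKM at every level of Pecam1, and the 3 Atg5-/- AT2-PBS samples were highest for Cd34 at both low and high Pecam1.

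The 20 further pan-endothelial genes gave 9 that passed the filter and 11 that did not. With BLM in *Atg5*f/f cells 3 of the 9 were called higher (*Ecscr*, *Esam* and *Sox18*) and 0 lower, where 20.6% of all tested genes were called higher and 7.77% lower. In *Atg5*-/- cells *Esam* alone was called, higher by 0.49 on the log2 scale (SE 0.13, limma adjusted p = 0.0374), where 7.66% of all tested genes were called higher and 10.7% lower. Its fold change missed 1.4 after median-ratio scaling (0.42) and without *Atg5*-/- AT2-PBS replicate 2 (0.46) or 3 (0.44) or *Atg5*-/- AT2-BLM replicate 3 (0.40). The median with BLM in *Atg5*-/- cells was 0.014 over all 20 and 0.47 over the 9 that passed the filter, beside 0.063 over all tested genes. In *Atg5*-/- against AT2-PBS 2 were called higher, *Eng* and *S1pr1*, and 0 lower, where the shares of all tested genes were 14.1% and 5.16%. In injured cells 0 were called by limma and 0 had an unadjusted p under 0.05, where 2.04% of all tested genes were called higher and 3.12% lower.

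*Esam* encodes an adhesion molecule of tight junctions and resembled *Egfl7* in being present throughout, at a level far above the other genes of its list. It was at 130, 118 and 135 FPKM with PBS and 198, 191 and 181 FPKM with BLM in *Atg5*f/f cells, and at 127, 107 and 104 FPKM with PBS and 152, 146 and 180 FPKM with BLM in *Atg5*-/- cells. All 6 BLM samples were above all 6 PBS samples. Without *Esam* the other 19 genes summed to between 1.80 and 15.2 FPKM in AT2-PBS and between 11.2 and 32.7 FPKM in *Atg5*-/- AT2-PBS.

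The list of 16 lung endothelial subtype genes gave 7 that passed the filter. With BLM in *Atg5*-/- cells 2 of them, *Car4* and *Lyve1*, were called lower and 0 higher, beside 10.7% and 7.66% of all tested genes. *Car4*, a carbonic anhydrase gene of alveolar capillaries, was at 39.3, 21.7 and 17.6 FPKM in *Atg5*-/- AT2-PBS, against 0.532, 5.90 and 5.94 FPKM in *Atg5*-/- AT2-BLM, and fell by 2.62 on the log2 scale (SE 0.60, limma adjusted p = 0.0170). *Lyve1*, which marks lymphatic vessels and some macrophages, fell by 0.87 (SE 0.36, limma adjusted p = 0.178), which missed the adjusted threshold, and its call was lost without *Atg5*-/- AT2-PBS replicate 3 (-0.65) or *Atg5*-/- AT2-BLM replicate 1 (-0.74) or 3 (-0.81). In *Atg5*f/f cells 1 of the 7 was called higher with BLM (*Gja4*), beside 20.6% of all tested genes. In *Atg5*-/- against AT2-PBS 4 of the 7 were called higher (*Car4*, *Lyve1*, *Gja4* and *Gpihbp1*), beside 14.1% of all tested genes. *Car4* in AT2-PBS was between 0.695 and 2.34 FPKM. Its highest group was *Atg5*-/- AT2-PBS, as for *Cd34*, whereas *Pecam1* had its highest mean in *Atg5*-/- AT2-BLM. The leukocyte and macrophage list was also highest in *Atg5*-/- AT2-PBS. Its part in the level and fall of *Car4* was not tested, so the fall cannot be assigned to capillary cells.

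Of 10 ligands that act on endothelial receptors 3 passed the filter. With BLM in *Atg5*-/- cells 1 of the 3 was called higher and 1 lower, beside 7.66% and 10.7% of all tested genes. The gene called lower, *Adm*, passed the filter only through *Atg5*-/- AT2-PBS, where it was highest, and nothing is read from its call. *Vegfa*, the growth factor that AT2 cells supply to capillaries through the receptor that *Kdr* encodes, was at 9.84, 12.7 and 8.14 FPKM in *Atg5*-/- AT2-PBS, against 21.4, 17.5 and 20.9 FPKM in *Atg5*-/- AT2-BLM. It rose by 0.91 on the log2 scale (SE 0.23, limma adjusted p = 0.0297), with every BLM sample above every PBS sample. In *Atg5*f/f cells *Vegfa* differed by 0.28 and was not called, and the difference between the genotypes was 0.64 (SE 0.33, limma adjusted p = 0.309).

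*Adm*, which encodes adrenomedullin, the peptide read through *Ramp2*, was at 3.14, 4.18 and 0.282 FPKM in *Atg5*-/- AT2-PBS, against 0.0436, 0.313 and 0 FPKM in *Atg5*-/- AT2-BLM. It was lower by 1.44 on the log2 scale (SE 0.40), with ranges that overlapped. Outside *Atg5*-/- AT2-PBS it reached 1 FPKM only in AT2-PBS replicate 1, at 1.22 FPKM. It passed the filter only through the group where it was high, so the difference is given without a test. Without *Atg5*-/- AT2-PBS replicate 1 or 2 it fell below the filter and was not tested. *Vegfb* differed by 0.52 and was not called.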

How the data were processed

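RNA was measured in 12 samples of sorted mouse AT2 cells, 3 in each of 4 groups taken from the sample labels. Per the paper, stranded mRNA libraries were sequenced, aligned to mm9 with STAR, and FPKM were computed with Cufflinks. The submitters' notes name Trimmomatic 0.36, Cufflinks 2.2.1, HTSeq 0.9.1 and HISAT2, so the aligner is given in more than 1 way. The authors deposited FPKM per gene in 1 table with no read counts. The paper adds a DESeq normalization without saying whether FPKM include it.

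The members and gene lists were chosen with earlier results of these data known. Values on the log2(FPKM + 1) scale went into limma 3.58.1 (R 4.3.3, eBayes with a trend, two-sided) as 1 model of all samples, over 10675 genes with at least 1 FPKM in at least 3 samples, with Benjamini-Hochberg adjustment over them. The call by unadjusted p and fold change follows the paper's methods. 3 samples against 3 cannot reach a two-sided exact permutation p below 0.1, so single values were not tested that way. The p-values set a difference in means against the spread of samples within groups, estimated by limma over all samples. Whether a sample pooled mice was not stated, so it is unknown whether this is a spread between single mice.

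Named genes are the 10 members, the sort antigens, *Atg5*, the 3 genes with the highest mean of each list, the 5 genes nearest in pattern to *Pecam1* and to *Cd34*, and genes of the endothelial lists called with BLM in *Atg5*-/- cells. Of the genes nearest to *Cd34*, 1 is not reported here. *Eng*, *Gja4*, *Gpihbp1*, *Calcrl*, *Ddx3y*, *Agpat2* and *Vps25* were named after their values were seen. Coordinates are those of GENCODE on NCBIM37 (mm9), and the annotation used by the authors was not given in the sources used here.

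Alternatives were a pseudocount of 0.1, no filter, quantile normalization, median-ratio scaling, leaving the groups not compared out of the model, the replicate number as a block, an adjusted p under 0.05 as the call, and each sample left out in turn. For the leukocyte and fibroblast lists, counting only genes that pass the filter outside *Atg5*-/- AT2-PBS was chosen after seeing the data. On simulated data for BLM in *Atg5*-/- cells with 10675 genes, 93% of genes changed 2-fold and 96% of those changed 4-fold were called. With no change 3.07% were called. Only genes above a set mean level were changed, and each gene had normal noise of the same spread in every group. The SD of *Pecam1* in log2(FPKM + 1) was 1.43 over the PBS and 0.072 over the BLM samples. These shares therefore do not say how often a change in the members would be called. The absolute depth is unknown, so no counting interval is given. Figures were drawn with matplotlib 3.10.9.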

Additional observations from a re-analysis of the deposited data

Results flagged for a closer look

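*Cd34* was picked out because its response to BLM went opposite ways in the genotypes. In *Atg5*f/f cells all 3 BLM samples lay above all 3 PBS samples, and in *Atg5*-/- cells all 3 lay below. The difference of the BLM effect between genotypes was -2.70 on the log2 scale (SE 0.34). The difference was not tested, because the *Atg5*f/f samples took part in the choice of *Cd34*.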

How the results depend on the processing

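Members called with BLM in *Atg5*f/f cells were 4, against 2 after quantile normalization, 2 with an adjusted p and 2 to 6 without 1 sample. With BLM in *Atg5*-/- cells they were 2, and *Pecam1* was added without *Atg5*-/- AT2-PBS replicate 3 alone. They were 4 without AT2-PBS replicate 2 and *Atg5*-/- AT2-PBS replicate 3 together. With *Atg5* loss under BLM they were 0, against 1 with the other groups out of the model and 1 without that pair. With *Atg5* loss under PBS they were 3, against 1 with an adjusted p, 1 to 5 without 1 sample and 5 without that pair. In the interaction they were 1, against 1 to 3 without 1 sample and 4 without that pair. Leaving out the pair was chosen after seeing the data. The cause of these changes was not tested.

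Directions turned for 5 differences of members that passed the filter. *Pecam1* in the interaction, at -0.84, was 0.041 without *Atg5*-/- AT2-PBS replicate 3. *Cldn5* with BLM in *Atg5*-/- cells was between -0.85 and 0.48 without 1 sample and 0.48 without the pair. *Ramp2* ran from -0.14 to 0.91 there, and from -0.037 to 0.16 with *Atg5* loss under BLM. *Egfl7* with *Atg5* loss under PBS ran from -0.18 to 0.10, and was 0.023 without the pair.

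Same-numbered samples did not deviate together (correlations of -0.239 to 0.227, not every sample closest to its own number), so the numbers were not taken as pairs. With the replicate number as a block, members called in the interaction were 2, with *Ramp2* added, and the block changed no other count of members. FPKM below about 1, as for *Cdh5* and *Kdr*, rest on an unknown number of fragments.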
